A study of Mus musculus with 6 samples.

Results

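Prostanoid genes were examined in kidneys of 15-day-old wild type C57BL/6 mice reared under maternal iron deficiency (FeD). The 10 genes were taken by name from the count tables: the cyclooxygenases Ptgs1 and Ptgs2, the synthases Ptges, Ptgds, Ptgis and Tbxas1, the breakdown enzyme Hpgd, and the prostaglandin E2 receptors Ptger1, Ptger3 and Ptger4. All 10 were present among 24422 listed genes, and all 10 were among the 15145 genes left after removal of low counts. Dams of the FeD pups were fed synthetic chow holding 2 to 6 ppm iron before mating, through pregnancy and while nursing, and dams of the control pups received 220 ppm iron. Each group had 3 kidneys, each a separate poly-A RNA library, with no transgene or gene deletion in either group. The labels name no litter, so litter and diet cannot be told apart, and P values measure only the spread between these kidneys.

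Prostanoids are short-lived lipid signals made from arachidonic acid. Phospholipases release the acid from membranes, cyclooxygenases turn it into prostaglandin H2, and terminal synthases convert that intermediate into prostaglandin E2, prostaglandin D2, prostacyclin or thromboxane A2, which then act on receptors of the same or nearby cells. In the kidney they adjust blood flow, renin release, salt transport and the response to vasopressin, and mice that lack Ptgs2 fail to complete postnatal kidney development.

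Upstream regions of 3 of the genes are shown because the results turn on them: the cyclooxygenase whose transcript rose in FeD kidneys, the cyclooxygenase that varied most, and the synthase that fell the most. Each has 300 bases, 250 before and 50 from the annotated RefSeq start site (build GRCm38.p6), printed 5′ to 3′ on the strand of the gene. Capitals mark matches on either strand to the hypoxia inducible factor core ACGTG or GCGTG, to TATAAA, to the GC box GGGCGG or to the cyclic AMP response element TGACGTCA.

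Ptgs1, chr2:36230176-36230475, + strand: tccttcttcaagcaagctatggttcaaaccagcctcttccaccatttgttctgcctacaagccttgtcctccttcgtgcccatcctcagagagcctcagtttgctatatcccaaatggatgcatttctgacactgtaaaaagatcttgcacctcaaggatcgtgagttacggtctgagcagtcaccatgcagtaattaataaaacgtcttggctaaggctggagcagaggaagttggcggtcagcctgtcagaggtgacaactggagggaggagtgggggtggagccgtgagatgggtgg
Ptgs2, chr1:150099781-150100080, + strand: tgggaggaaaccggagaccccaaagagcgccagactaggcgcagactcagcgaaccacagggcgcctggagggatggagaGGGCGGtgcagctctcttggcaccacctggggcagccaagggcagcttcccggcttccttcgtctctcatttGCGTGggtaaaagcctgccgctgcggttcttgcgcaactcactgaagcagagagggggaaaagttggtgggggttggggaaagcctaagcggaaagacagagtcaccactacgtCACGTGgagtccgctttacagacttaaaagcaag
Tbxas1, chr6:38918736-38919035, + strand: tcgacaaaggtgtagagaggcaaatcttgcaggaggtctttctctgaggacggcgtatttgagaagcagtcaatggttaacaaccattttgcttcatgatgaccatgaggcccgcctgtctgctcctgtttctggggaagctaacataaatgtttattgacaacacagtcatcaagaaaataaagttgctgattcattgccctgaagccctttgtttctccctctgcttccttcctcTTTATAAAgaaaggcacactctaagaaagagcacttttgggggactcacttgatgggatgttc

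The window of Ptgs1 held none of these letters. That of Ptgs2 held ACGTG at position 18, counted from the start site, and this match overlapped one on the opposite strand at position 17. It also held GCGTG at position -98 and the GC box at position -170. In Tbxas1, TATAAA lay at position -11 and overlapped a match of the opposite strand at position -13. RefSeq regions were matched for 8 of the 10 genes, and Ptgis and Ptger1 are named only. Either hypoxia core occurred in 4 of the 8 windows, those of Ptgs2, Ptges, Ptger3 and Hpgd, and in 43.8% of all 32851 windows of this length. TATAAA was held by 13.6% of all windows, GGGCGG by 35.7%, ACGTG by 19.6%, GCGTG by 32.4% and TGACGTCA by 1.79%. These matches describe letters in a window and are not binding sites.

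Total counts on genes were 16189041 to 20374327 in control kidneys and 13732173 to 20853293 in FeD kidneys, so 3 counts, the limit that a count of 0 allows, stood at 0.144 to 0.218 CPM (counting error only). The groups were tested by the quasi-likelihood method of edgeR, with P values adjusted by the Benjamini-Hochberg method over all 15145 genes, and a gene passed at an adjusted P under 0.05. Normalized counts are scaled to the mean library size by the TMM method. FeD kidney 3 stood apart from the other FeD kidneys: the chi-square of its counts divided by the degrees of freedom was 24.0 and 30.4 against them, 11.5 between FeD kidneys 1 and 2, and 3.77 to 7.36 between control kidneys. Sex-linked transcripts also differed: Xist was high, at 14238 to 16079 normalized counts, in control kidneys 1 and 2 and FeD kidney 3, whereas control kidney 3 and FeD kidneys 1 and 2 had 28.0 to 48.0 of Xist and high Y-linked transcripts. A fit with a term for this class, added after seeing the data, is given where it changes a call. Whole kidneys were sequenced, so fewer cells of a type and less RNA per cell cannot be told apart. As a check of the tissue, all 5 podocyte markers and all 8 proximal tubule markers passed the count filter. Podocyte markers summed to 748 to 807 CPM in control and 608 to 855 CPM in FeD kidneys. Of the 8 proximal tubule markers 7 were lower in FeD kidneys, against 23.3% of all tested genes. These 8 markers summed to 7548 to 8175 CPM in control and 2810 to 3214 CPM in FeD kidneys.

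In FeD kidneys, 3 of the 10 prostanoid genes were higher (Ptgs1, Ptgis and Ptger4), 3 were lower (Tbxas1, Ptgds and Ptger3), and 4 did not pass (Ptgs2, Ptges, Hpgd and Ptger1). Among all tested genes 22.4% were higher and 23.3% were lower, so the counts of the 10 genes lay near this background. Only Tbxas1 also changed at least 2-fold, the threshold the study uses, against 4.34% of all genes higher and 5.69% lower by that amount. The groups did not overlap in 6 of the 10 genes, and in 58.1% of all genes. The median log2 fold change of FeD over control (log2FC) was 0.013 over the 10 genes and -0.0018 over all genes.

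**Figure D1:**
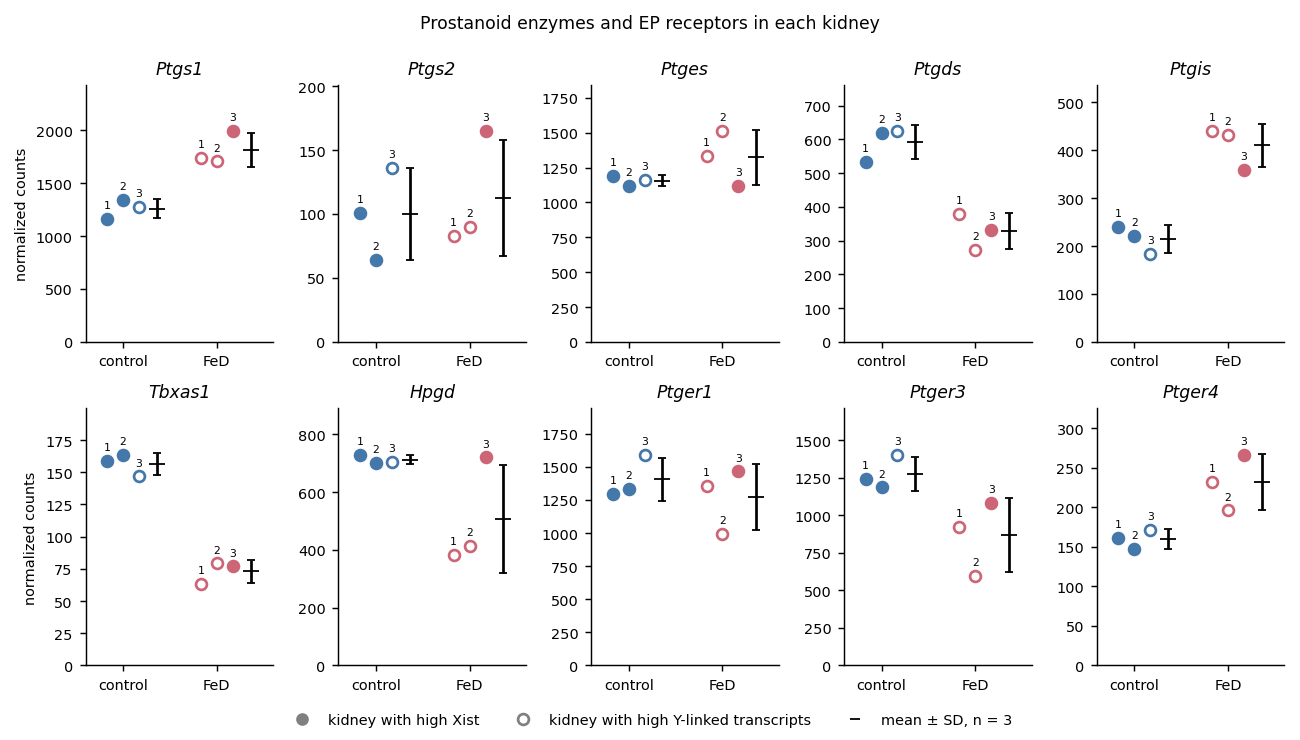
Normalized counts (vertical axes from 0) of the 10 genes in each of 3 control (blue) and 3 FeD (red) kidneys, numbered by replicate; filled points are kidneys with high Xist, open points those with high Y-linked transcripts, and bars are mean ± SD. The FeD kidneys lay above the controls for Ptgs1, Ptgis and Ptger4 and below them for Ptgds, Tbxas1 and Ptger3, while Hpgd of FeD kidney 3, at 720 normalized counts, lay with the controls.

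Levels per length were compared between genes as normalized counts per kilobase of annotated exon. In control kidneys Hpgd was highest, at 414 ± 8.95 (SD, n = 3), and its kidneys did not overlap those of the next gene. Ptgds (359 ± 31.0), Ptgs1 (325 ± 22.9), Ptges (294 ± 9.53), Ptger1 (284 ± 32.7) and Ptger3 (280 ± 25.0) followed, each overlapping its neighbour in this order. Ptgis, at 83.6 ± 11.2, stood alone between these and the 3 lowest genes. Ptgs2 (24.2 ± 8.68) and Ptger4 (24.1 ± 1.85) overlapped, and Tbxas1 was lowest, at 17.2 ± 0.963, below every Ptger4 value but within the range of Ptgs2. The annotated exons of Tbxas1 cover 9094 bases over 7 transcripts, more than any other of the 10 genes, which lowers its level on this scale. In FeD kidneys Ptgs1 was highest, at 467 ± 40.4, and Tbxas1 again lowest, at 8.03 ± 0.963.

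The cyclooxygenases catalyze the committed step. Ptgs1 (chromosome 2, 36085946 to 36107792, plus strand, mm9) encodes cyclooxygenase-1, the constitutive enzyme of collecting duct, vessels and platelets. Its normalized counts were 1167, 1343 and 1274 in control kidneys 1 to 3, and 1742, 1706 and 1994 in FeD kidneys 1 to 3. Every FeD kidney lay above every control kidney, and the mean was 1.44-fold higher. The log2FC was 0.53 (standard error, SE, 0.083, edgeR adjusted P = 0.0015) and ranged from 0.46 to 0.59 when each kidney was left out.

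Ptgs2 (chromosome 1, 151947254 to 151955140, plus strand) encodes the inducible cyclooxygenase-2, which in the kidney is found in macula densa, thick ascending limb and medullary interstitial cells. Control kidneys had 101, 64.2 and 136 normalized counts, and FeD kidneys 83.0, 89.6 and 165. The kidneys numbered 3 were the highest of their groups, and the groups overlapped. Its coefficient of variation was 35.9% among control and 40.4% among FeD kidneys, the largest of the 10 genes in both groups. The log2FC of 0.17 did not pass (edgeR adjusted P = 0.71), its 95% confidence interval reached from -0.60 to 0.94, and its sign turned when control kidney 2 (-0.069) or FeD kidney 3 (-0.22) was left out.

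Within each kidney, Ptgs2 counts were 8.63%, 4.78% and 10.7% of Ptgs1 counts in control kidneys and 4.76%, 5.25% and 8.27% in FeD kidneys. These shares are free of library size but not of gene length. The log2 ratio averaged -3.71 ± 0.60 (SD, n = 3) in controls against -4.07 ± 0.42 under FeD, and the difference of -0.36 was smaller than the spread between kidneys (two-sided exact permutation test, P = 0.40, where 3 kidneys against 3 cannot give less than 0.10).

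Genes whose level followed the cyclooxygenases most closely over the 6 kidneys were found by Pearson's r of log2 CPM, as a description. For Ptgs1 they were Pkn2 (r = 0.997), Atf1 (r = 0.996) and Slc4a4 (r = 0.996), and 1612 genes reached an r of 0.9 or more. For Ptgs2 they were Asb6 (r = 0.990), Ptgfrn (r = 0.981) and Gdf7 (r = 0.977), among 36 such genes. The 6 points share diet and library, and for Ptgs1 they fall into the 2 diet groups. For both cyclooxygenases the named genes are the highest of 15145 tested genes over only 6 points. How many genes would reach such an r by chance was not computed.

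The terminal synthases set which prostanoid is made. Ptgis (chromosome 2, 167017305 to 167066104, minus strand), the prostacyclin synthase of endothelium, smooth muscle and fibroblasts, had 240, 221 and 183 normalized counts in control kidneys and 440, 432 and 359 in FeD kidneys. The groups were separate by a wide margin, and the mean was 1.91-fold higher in FeD kidneys. Its log2FC of 0.93 (SE 0.13, edgeR adjusted P = 0.00091) lay just under the 2-fold threshold and ranged from 0.83 to 1.04 when each kidney was left out. Antisense to it, the noncoding gene 1110018N20Rik spans 6.08% of its exon bases.

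Tbxas1 (chromosome 6, 38825403 to 39034584, plus strand) encodes thromboxane synthase, which is abundant in platelets and macrophages. Control kidneys had 159, 164 and 147 normalized counts, and FeD kidneys 63.0, 79.2 and 76.8. No FeD kidney came near the controls, and the control mean was 2.14-fold that of FeD kidneys. The log2FC was -1.10 (SE 0.15, edgeR adjusted P = 0.00081), with a range of -1.15 to -0.99 when each kidney was left out. Without FeD kidney 1 the change was therefore slightly under 2-fold, while the adjusted P still passed.

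Markers of cells that make thromboxane were followed beside Tbxas1. Of 11 macrophage and monocyte markers 5 were higher in FeD kidneys, 1 was lower and 5 did not pass. Among all tested genes 22.4% were higher and 23.3% lower. The 11 markers summed to 174 to 197 CPM in control and 187 to 216 CPM in FeD kidneys. The marker that fell was Csf1r, the receptor of macrophage colony stimulating factor, from 1373, 1401 and 1444 to 1014, 1179 and 904 normalized counts. Cd68, a lysosomal macrophage protein, rose from 89.2, 102 and 71.2 to 193, 174 and 199. Of 5 platelet markers 3 were tested and none passed (edgeR, 0 also at an unadjusted P under 0.05), with summed levels of 14.2 to 19.1 CPM in control and 13.7 to 15.1 CPM in FeD kidneys. Their part in the fall of Tbxas1 was not tested.

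Ptgds (chromosome 2, 25322229 to 25325566, minus strand), the lipocalin-type prostaglandin D2 synthase, had 533, 618 and 625 normalized counts in control kidneys and 378, 271 and 332 in FeD kidneys. All FeD kidneys lay below all control kidneys. The control mean was 1.81-fold the FeD mean, a log2FC of -0.85 (SE 0.13, edgeR adjusted P = 0.0012) that ranged from -0.95 to -0.72 when each kidney was left out.

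Ptges (chromosome 2, 30744991 to 30785383, minus strand) encodes the microsomal prostaglandin E2 synthase that works with cyclooxygenase-2. Its normalized counts were 1192, 1117 and 1164 in control kidneys and 1335, 1513 and 1121 in FeD kidneys. FeD kidneys 1 and 2 lay above the controls and FeD kidney 3 lay among them. The log2FC of 0.19 did not pass (95% confidence interval -0.049 to 0.43, edgeR adjusted P = 0.17). Without FeD kidney 3 it was 0.31 and passed (edgeR adjusted P = 0.0078).

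Hpgd (chromosome 8, 58773349 to 58799843, plus strand) encodes 15-hydroxyprostaglandin dehydrogenase, which starts the inactivation of prostaglandin E2. Control kidneys were nearly equal, at 729, 701 and 705 normalized counts, whereas FeD kidneys had 383, 414 and 720. FeD kidneys 1 and 2 lay far below the controls and FeD kidney 3 lay within them. The log2FC of -0.49 did not pass (95% confidence interval -0.98 to 0.0083, edgeR adjusted P = 0.098), and without FeD kidney 3 it was -0.83 with an adjusted P of 0.00011 (edgeR). The kidneys with high Y-linked transcripts had 705 (control kidney 3), 383 and 414 counts (FeD kidneys 1 and 2), and the part of sex in these values was not tested apart from the following fit. With a term for the sex-linked class the log2FC was -0.40 (edgeR adjusted P = 0.091).

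The balance of Ptges to Hpgd counts within a kidney was 1.63, 1.59 and 1.65 in control kidneys and 3.49, 3.65 and 1.56 in FeD kidneys. Here too FeD kidneys 1 and 2 parted from FeD kidney 3, which had the lowest ratio of all 6. The log2 ratio averaged 0.70 ± 0.027 (SD, n = 3) in controls against 1.44 ± 0.69 under FeD, and the difference of 0.73 was close to the SD of the FeD kidneys and did not pass (two-sided exact permutation test, P = 0.40).

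**Figure D2:**
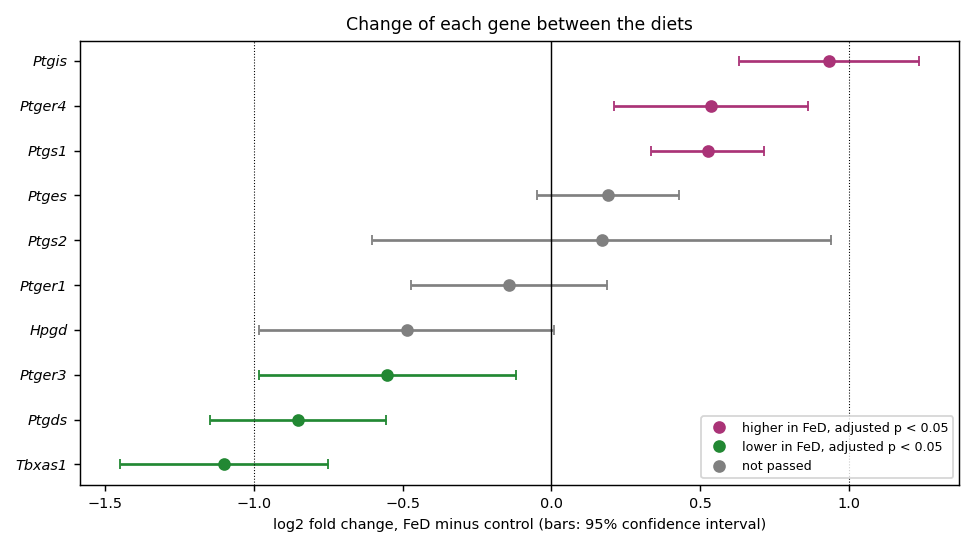
Log2 fold change (FeD minus control) of the 10 genes with 95% confidence intervals, ordered by size; dotted lines mark a 2-fold change and colours mark genes higher, lower or not passed at an adjusted P of 0.05. Values ran from -1.10 for Tbxas1 to 0.93 for Ptgis, and the interval of Ptgs2 was the widest.

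The prostaglandin E2 receptors differ in coupling: EP1 (Ptger1) raises calcium, EP3 (Ptger3) mainly lowers cyclic AMP, and EP2 and EP4 (Ptger4) raise it. Ptger3 (chromosome 3, 157229856 to 157307722, plus strand), which is found in thick ascending limb and collecting duct and opposes vasopressin, had 1240, 1185 and 1404 normalized counts in control kidneys. FeD kidneys had 924, 596 and 1082. All FeD kidneys lay below all controls, with FeD kidney 2 the lowest, and the log2FC was -0.55 (SE 0.19, edgeR adjusted P = 0.042). This call was lost in several fits. The adjusted P was 0.088, 0.078 and 0.14 without control kidney 1, 2 or 3, and 0.089 without FeD kidney 1 (edgeR). The log2FC in these fits was -0.58, -0.61, -0.48 and -0.58. Over all genes, 3397 were higher and 3527 lower with all kidneys. Without 1 control kidney 2401 to 2554 were higher and 2618 to 2757 lower, and without FeD kidney 1 they were 3331 and 3053. With a term for the sex-linked class the adjusted P of Ptger3 was 0.061 (edgeR). Without FeD kidney 2 the log2FC shrank to -0.33 and still passed (edgeR adjusted P = 0.035).

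Ptger4 (chromosome 15, 5156661 to 5194187, minus strand), found in glomeruli and vessels, had 161, 147 and 172 normalized counts in control kidneys and 232, 196 and 267 in FeD kidneys. The groups did not overlap, and the mean was 1.45-fold higher in FeD kidneys. The log2FC was 0.54 (SE 0.14, edgeR adjusted P = 0.015). It no longer passed without control kidney 1 (log2FC 0.54, edgeR adjusted P = 0.053) or control kidney 2 (log2FC 0.48, edgeR adjusted P = 0.070). Fewer of all tested genes passed in these fits as well. Antisense to it, the pseudogene Gm15937 spans 15.3% and Ttc33 spans 1.23% of its exonic length.

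Ptger1 (chromosome 8, 86190732 to 86196652, plus strand), the collecting duct receptor, had 1295, 1332 and 1593 normalized counts in control kidneys and 1359, 991 and 1466 in FeD kidneys. The groups overlapped, with FeD kidney 2 below all others. The log2FC of -0.14 did not pass (95% confidence interval -0.47 to 0.19, edgeR adjusted P = 0.45) and turned to 0.027 without FeD kidney 2. The strand setting of the counting is not given, so reads of either strand may be included in the counts of Ptger1 and the other genes.

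Markers of the segments that carry these receptors moved unevenly. The background for the counts that follow is 22.4% higher and 23.3% lower among all tested genes. Of 6 thick ascending limb markers 2 were lower, and of 8 collecting duct principal cell markers 4 were higher and 2 were lower. Aqp2, the vasopressin-regulated water channel, was among those that rose, from 10423, 10362 and 16567 to 29562, 17688 and 34483 normalized counts. In Avpr2, the vasopressin receptor, FeD kidney 2 was again the lowest, at 391, and the gene fell from 835, 908 and 1074 to 624, 391 and 746. Of 8 interstitial and pericyte markers 4 were higher and 3 lower, and of 7 endothelial markers 6 were lower and none higher, beside the rise of Ptgis and Ptger4. The part of these cell types in the changes was not tested. The macula densa marker Nos1 had 128, 139 and 121 normalized counts in control and 171, 126 and 248 in FeD kidneys and did not pass (edgeR adjusted P = 0.11).

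**Figure D3:**
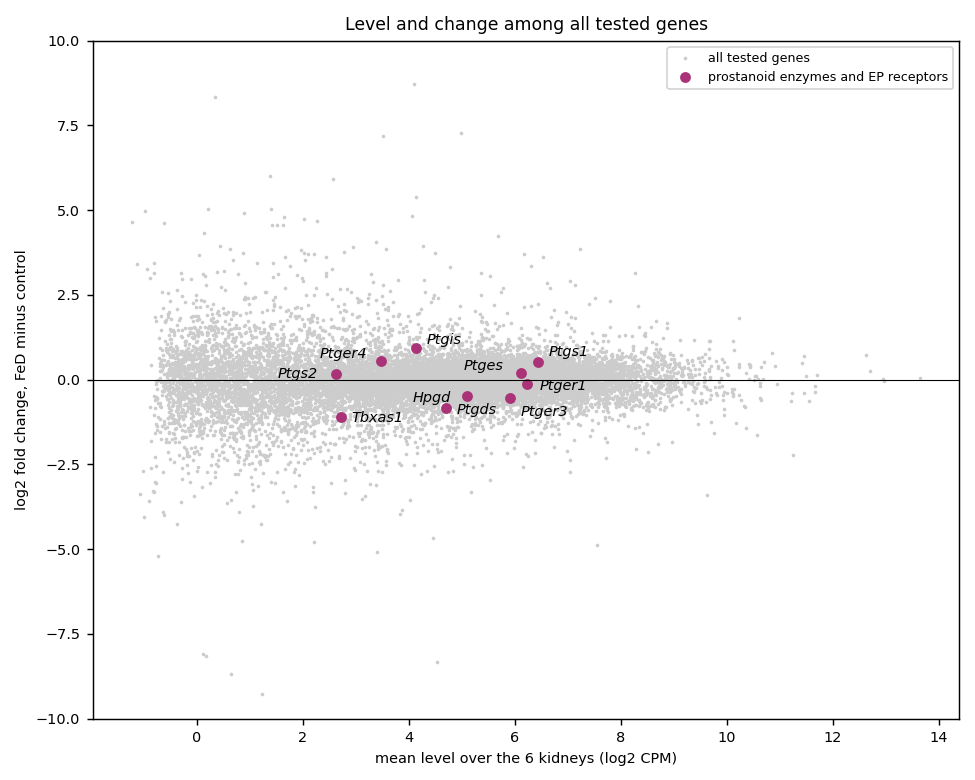
Log2 fold change (FeD minus control) against mean level in log2 CPM over the 6 kidneys for 15145 tested genes (grey) and the 10 prostanoid genes (purple). The 10 genes sit within the cloud of all genes, with changes between -1.10 and 0.93.

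Another 23 genes of the pathway were followed from a list, of which 18 were tested. Of these 2 were higher, 6 were lower and 10 did not pass, so 11.1% were higher and 33.3% lower, against 22.4% and 23.3% of all tested genes. Their median log2FC was -0.18, against -0.0018 over all tested genes, with a range from -2.69 to 0.52. The number higher was 1 without control kidney 2. The number lower was 9 without FeD kidney 3, when the cytosolic phospholipase Pla2g4a (-0.50), the synthase Ptges3 (-0.15) and the carbonyl reductase Cbr1 (-0.36) also passed. With the term for the sex-linked class it was 7, and Ptgr1, a prostaglandin reductase, also passed (log2FC -0.43, edgeR adjusted P = 0.030).

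Among enzymes that release arachidonic acid, the secreted phospholipase Pla2g5 fell from 236, 241 and 222 to 59.0, 84.4 and 57.0 normalized counts. Its log2FC was -1.82 (SE 0.17, edgeR adjusted P = 0.00015). Pla2g12a, another secreted phospholipase, rose from 619 ± 31.6 to 772 ± 21.2 (SD, n = 3), a log2FC of 0.32 (edgeR adjusted P = 0.011) that was lost without control kidney 2 (0.27, edgeR adjusted P = 0.055). The cytosolic phospholipase Pla2g4a, the main source of arachidonic acid for cyclooxygenases, had 733, 631 and 671 normalized counts in control and 490, 464 and 1024 in FeD kidneys and did not pass. As with Hpgd, FeD kidney 3 lay apart from FeD kidneys 1 and 2.

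Of the other synthases, Ptges2, a membrane-associated prostaglandin E2 synthase, fell from 949 ± 56.9 to 613 ± 71.5 normalized counts, a log2FC of -0.63 (edgeR adjusted P = 0.0016). Fam213b, a prostaglandin F synthase, fell from 496, 560 and 556 to 162, 239 and 133, a log2FC of -1.61 (SE 0.19, edgeR adjusted P = 4e-04). Ptges3, the cytosolic prostaglandin E2 synthase and Hsp90 partner, had 2154, 2236 and 2295 normalized counts in control and 2010, 1961 and 2110 in FeD kidneys and did not pass.

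Slco2a1, the transporter that takes prostaglandins into cells for breakdown, rose from 799, 827 and 835 to 1121, 1185 and 1133 normalized counts. The log2FC was 0.48 (SE 0.065, edgeR adjusted P = 0.00074). Ptgr2, a reductase of the product of Hpgd, fell from 2648 ± 135 to 2149 ± 52.6, a log2FC of -0.30 (edgeR adjusted P = 0.0042).

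The thromboxane receptor Tbxa2r (chromosome 10, 80791477 to 80797916, plus strand, mm9) changed more than any other gene of the list. Control kidneys had 317, 323 and 330 normalized counts, and FeD kidneys 53.0, 44.1 and 51.8. The groups lay far apart and varied little within, and the control mean was 6.52-fold the FeD mean. Its log2FC of -2.69 (SE 0.12, edgeR adjusted P = 8.9e-06) ranged from -2.72 to -2.60 when each kidney was left out, so that the thromboxane synthase and the thromboxane receptor were both lower.

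The prostacyclin receptor Ptgir did not follow its synthase, with 41.2, 40.9 and 42.7 normalized counts in control and 44.0, 29.9 and 49.2 in FeD kidneys, and did not pass. The prostaglandin F receptor Ptgfr, at 762, 768 and 755 against 721, 699 and 883, did not pass either. Ptger2, the EP2 receptor, had 21, 15 and 24 raw counts in control and 5, 7 and 5 in FeD kidneys, and its log2FC was -1.70 (SE 0.37, edgeR adjusted P = 0.0068). These counts lie close to the floor of 3, and the gene was not tested with a minimum of 10 counts in every kidney. Ptgdr and Ptgdr2, receptors of prostaglandin D2, had 0 to 2 raw counts in each kidney and were not tested.

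**Figure D4:**
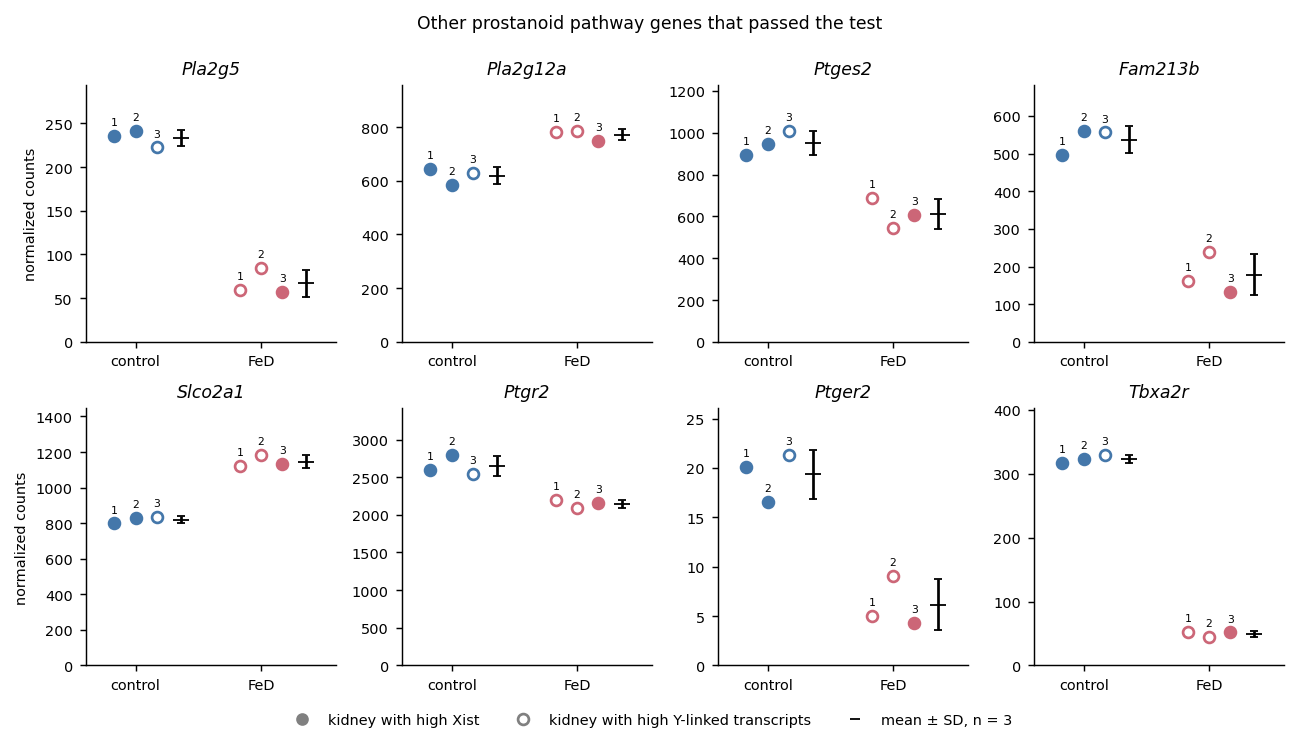
Normalized counts (vertical axes from 0) of the 8 further pathway genes that passed the test, in 3 control (blue) and 3 FeD (red) kidneys; filled points are kidneys with high Xist, open points those with high Y-linked transcripts, and bars are mean ± SD. The groups are separate in each of these 8 genes, which were drawn because they passed, and in 58.1% of all tested genes. Tbxa2r shows the widest gap relative to its level, 317 to 330 against 44.1 to 53.0.

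The neighbouring lipoxygenase and leukotriene branch uses the same fatty acid. Of 9 listed genes 8 were tested, 2 were higher (25% against 22.4% of all tested genes), 1 was lower (12.5% against 23.3%) and 5 did not pass. Alox15, a lipoxygenase of macrophages and epithelia, rose from 82.4, 17.7 and 13.3 to 286, 275 and 133 normalized counts (edgeR adjusted P = 0.0088). Alox5ap, the partner of 5-lipoxygenase, rose from 42.2, 45.4 and 47.2 to 66.0, 85.7 and 57.0 and passed narrowly (edgeR adjusted P = 0.046). Alox12 fell from 218, 198 and 172 to 114, 89.6 and 82.9 (edgeR adjusted P = 0.0017). Calls in this branch were not followed with a kidney left out. FeD and control kidneys did not overlap in these 3 genes, as in 58.1% of all tested genes.

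**Figure D5:**
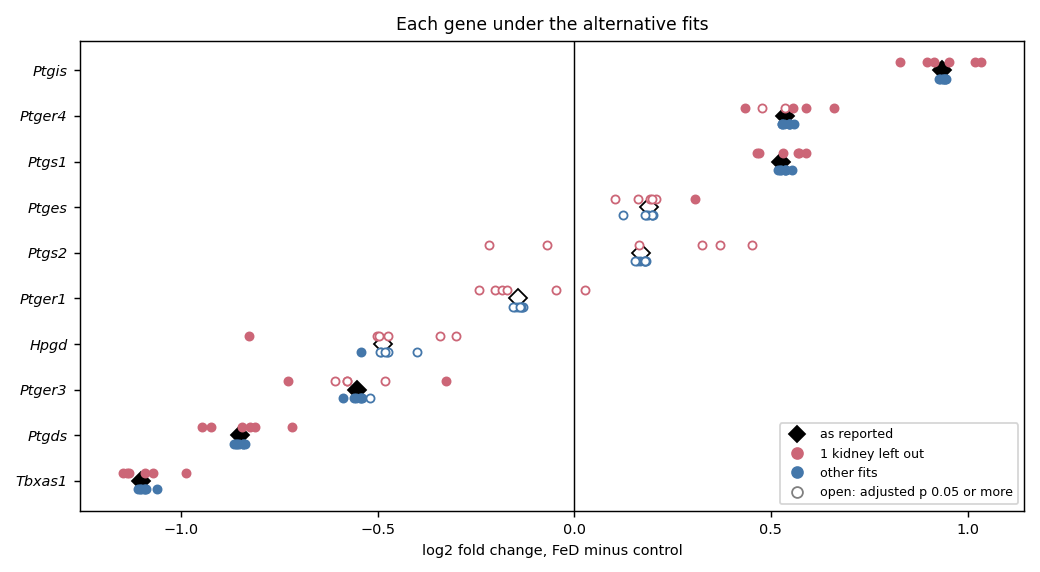
Log2 fold change (FeD minus control) of the 10 genes as reported (diamonds), with 1 kidney left out (red) and under other fits (blue); open symbols have an adjusted P of 0.05 or more. Ptgs1, Ptgis, Ptgds and Tbxas1 passed in every fit drawn, while Ptger3, Ptger4, Hpgd and Ptges changed sides in some.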

How the data were processed

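Kidneys of 3 control and 3 FeD pups were sequenced as poly-A RNA libraries. The authors called bases with CASAVA 1.8.2, trimmed reads with Trimmomatic, aligned them to mm9 with TopHat2 2.0.11 and deposited raw HTSeq counts per gene, in 1 table per group with a column per kidney; the gene annotation, strand setting and treatment of shared reads are not given in the sources used here. Fold changes, standard errors and P values were computed from these counts with edgeR 4.0.16 (R 4.3.3) by filterByExpr, TMM normalization and the quasi-likelihood F test on all 15145 genes kept, without covariates. Groups came from the labels. Positions and exon lengths are from GENCODE for mm9, and upstream regions from RefSeq for GRCm38.p6.

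The 10 genes, the pathway and marker lists and the tests were chosen with earlier results of these data known. All 10 genes and every other pathway gene that passed are named, and for each cyclooxygenase the 3 genes with the highest r. Only some markers of the cell types that the 10 genes are known from are named. Adgre1 of macrophages and Umod and Slc12a1 of thick ascending limb, which did not pass, enter the marker counts alone. The lipoxygenases and the pathway genes named without passing were chosen after their values were seen. Ratios within a kidney added 0.5 to each count for the log2 value. Alternatives were other size factors, other count filters, DESeq2 1.42.0, a replicate block and leaving out each kidney. The term for sex-linked transcripts was added after seeing the data. No 2 libraries of the same group agreed within sampling noise. The scripts were tested on simulated counts. Some overlaps between genes are not reported here.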

Additional observations from a re-analysis of the deposited data

How the results depend on the processing

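Of 130 alternative fold changes of the 10 genes, 117 kept their direction and their side of the threshold, 7 no longer passed (Ptger3 in 5 and Ptger4 in 2), 3 newly passed (Hpgd in 2, Ptges in 1) and 3 turned. The 3 that turned had not passed as reported: Ptgs2 was -0.069 without control kidney 2 and -0.22 without FeD kidney 3, and Ptger1 was 0.027 without FeD kidney 2 (log2). When each kidney was left out, Ptgs2 ranged from -0.22 to 0.45 and Ptger1 from -0.24 to 0.027. Of 103 alternative fold changes of the 8 other pathway genes that passed, 102 kept both. When each kidney was left out, 1 to 2 of the other pathway genes were higher and 6 to 9 lower. Ptger2 has no value with a minimum of 10 counts. Other size factors, no count filter and DESeq2 changed no call among the 10 genes. The causes were not tested.

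Deviations of same-numbered kidneys correlated at -0.16, 9.6e-05 and -0.035, and those of differently numbered kidneys at -0.092 to 0.17. With 3 kidneys per group these values depend on each other, so they cannot show whether replicate numbers pair the kidneys. With a replicate block, 3 of the 10 genes were higher and 4 lower, since Hpgd passed (-0.54, adjusted P = 0.047, edgeR), and 2 and 6 of the other pathway genes were higher and lower. For the log2 ratios, the mean paired differences of -0.36 (Ptgs2 to Ptgs1) and 0.73 (Ptges to Hpgd) equal the unpaired ones by construction. They are therefore no check of the ratios. Under the block 3100 of all tested genes were higher and 3344 lower. Counts of Ptger2 lie near the floor, and the spread of Ptgs2 between kidneys leaves a wide interval.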
